A study of Mus musculus with 6 samples.

Results

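The genes of the unfolded protein response and of protein folding in the endoplasmic reticulum (ER) were followed in the livers of Pfn2-/- mice, labelled as lacking profilin 2, and in those of wild-type mice. A fixed list of 34 genes was looked up among the array rows that name exactly 1 gene symbol, and where several rows named a gene the brightest one on average was used. This gave 33 measured genes of 22180 genes in all. Pdia4, a protein disulfide isomerase gene, lay in a row that named several genes and was not analysed here. The 33 genes comprised 14 ER chaperones and folding factors, 8 genes of ER-associated degradation, 4 sensors and transducers, 5 genes of the ATF4 and CHOP arm, and the redox genes Selenot and Pdilt, which were kept apart from these groups.

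The series holds 6 Affymetrix arrays of RNA from whole liver of C57BL/6 mice, 3 of Pfn2-/- and 3 of wild-type animals, and asks how loss of the actin-binding protein profilin 2 changes liver expression. In both genotypes the animal of replicate 1 was 9 months old, that of replicate 2 was 8.5 months old and that of replicate 3 was 8 months old, and the labels name no treatment. The construction of the Pfn2 allele and the sex of the animals were not known here. Values are RMA expression values on the log2 scale, so a difference of 1 is a doubling, and all differences are Pfn2-/- minus wild type with a standard error (SE) from limma and n = 3 arrays per genotype. Array medians were 4.36 to 4.41, and arrays correlated across genes at 0.9810 to 0.9898 within a genotype and at 0.9815 to 0.9872 between genotypes. The row of Pfn2 itself was dim, at 3.88, 3.81 and 3.93 in Pfn2-/- liver and at 4.02, 3.85 and 4.09 in wild-type liver. These values overlap, and without the position of its probes they do not check the genotype labels. The hepatocyte marker Alb was bright on every array, at no less than 12.93 in Pfn2-/- liver and no less than 12.98 in wild-type liver.

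Hepatocytes secrete most plasma proteins, and these fold in the ER before export. When unfolded proteins build up, the membrane sensors IRE1 (encoded by Ern1), ATF6 and PERK (Eif2ak3) signal to the nucleus. IRE1 splices Xbp1 mRNA, and the XBP1 and ATF6 factors then raise genes of chaperones and of ER-associated degradation, which returns misfolded proteins to the cytosol for disposal. PERK phosphorylates the initiation factor eIF2alpha, which lowers general translation and favours that of ATF4, and ATF4 in turn raises Ddit3 (encoding CHOP), Trib3, Chac1 and others. The array rows measure total RNA of each gene and show neither Xbp1 splicing nor eIF2alpha phosphorylation.

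No member passed the test between the genotypes. Across all 22180 genes tested with limma, 0 passed an adjusted p of 0.05, which is 0% of genes, and the smallest adjusted p of a member was 0.621, for Pdilt. At an unadjusted limma p under 0.05 there were 4 members, all of them higher in Pfn2-/- liver: Sdf2l1, Manf, Syvn1 and Pdilt. These are 12.1% of the 33 members, against 2.67% of all genes that were higher by the same rule, and 0 members were lower by it, against 2.62% of all genes. Which members met this rule changed with the processing, and under some settings 1 of Ppp1r15a, Herpud1 and Dnajb9 was lower by it. The list was drawn up with earlier results of these data known, so the count describes these arrays and is no independent evidence.

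The direction differed between the groups of members, although the difference between groups was not tested. Of the 14 chaperones and folding factors, 13 had a mean above wild type and 1 below, with a median difference of 0.15. Of the 8 degradation genes 6 lay above and 2 below (median 0.10). The 4 sensors divided evenly (median 0.01), and of the 5 ATF4 and CHOP genes 1 lay above and 4 below (median -0.03). Over all 22180 genes the median difference was 0.00, and 49.2% of genes lay above wild type. Whole liver was measured, so a change in the share of a cell type and a change of RNA per cell cannot be told apart.

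**Figure D1:**
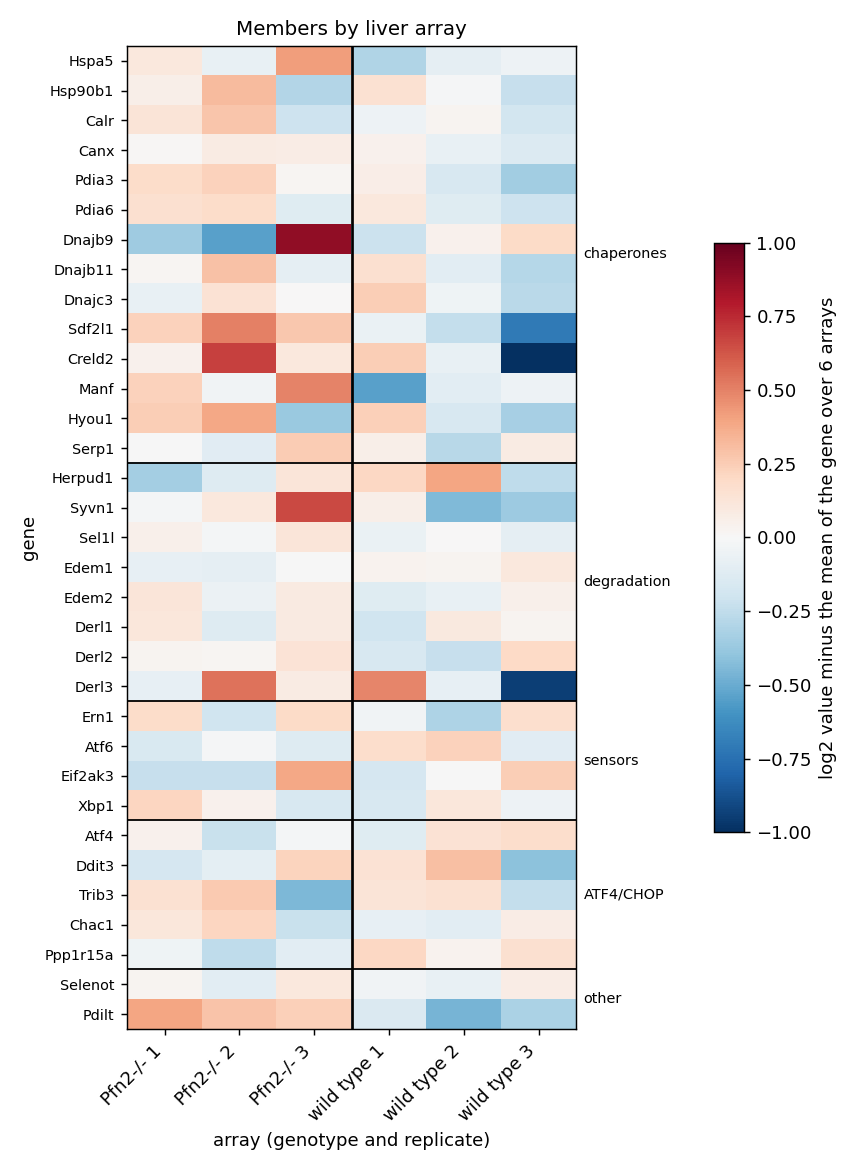
Log2 value of each of the 33 measured members on each array, minus the mean of that gene over the 6 arrays (colour, from -1 to 1), with Pfn2-/- arrays on the left and wild-type arrays on the right of the vertical line. Horizontal lines part the groups of members. Sdf2l1, Creld2 and Derl3 are lowest in wild-type replicate 3, and Dnajb9 and Syvn1 are highest in Pfn2-/- replicate 3.

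Sdf2l1, which encodes a luminal ER protein that works in a complex with J-domain co-chaperones, had the largest difference of any member. Its values were 7.47, 7.74 and 7.51 in Pfn2-/- liver, against 7.17, 7.0 and 6.53 in wild-type liver. All Pfn2-/- arrays lay above all wild-type arrays, and wild-type replicate 3 was the lowest. The difference was 0.67 (SE 0.17, 95% interval 0.28 to 1.06), a 1.59-fold higher level, with an unadjusted limma p of 0.00325 and an adjusted p of 0.746. It was 0.49 to 0.81 when single arrays were left out, and the unadjusted limma p stayed under 0.05 each time.

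Manf encodes a small ER protein that binds the chaperone BiP and can be secreted. It lay at 5.72, 5.46 and 5.99 in Pfn2-/- liver and at 4.95, 5.39 and 5.44 in wild-type liver. The groups did not overlap, but Pfn2-/- replicate 2 and wild-type replicate 3 nearly touched. The difference was 0.46 (SE 0.18, 95% interval 0.06 to 0.86, adjusted p = 0.915). Without wild-type replicate 1 it was 0.31 and without Pfn2-/- replicate 3 it was 0.33, and in either case, as without Pfn2-/- replicate 1, the unadjusted limma p was above 0.05.

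Creld2, an ER stress-inducible gene for a luminal ER protein, had the second largest difference among the chaperones, but it rested on 1 array. The Pfn2-/- arrays were at 8.07, 8.71 and 8.13 and the wild-type arrays at 8.27, 7.95 and 7.03. The groups overlapped, and wild-type replicate 3 stood far below the other 5 arrays. The difference was 0.55 (SE 0.29, 95% interval -0.10 to 1.21) with all arrays and 0.19 (SE 0.21) without wild-type replicate 3, while it was 0.35 to 0.81 without any other array. The spread of Creld2 within genotypes (residual SD 0.52) was at percentile 98.5 of all genes.

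The major ER chaperones differed less. Hspa5, which encodes BiP, the Hsp70 of the ER and the protein that keeps the sensors inactive, lay at 8.56, 8.38 and 8.87 in Pfn2-/- liver and at 8.15, 8.36 and 8.40 in wild-type liver. The groups overlapped only through Pfn2-/- replicate 2, which lay just below wild-type replicate 3. The difference was 0.30 (SE 0.15, 95% interval -0.04 to 0.64), and it was 0.17 without Pfn2-/- replicate 3. Pdia3, a disulfide isomerase that acts on glycoproteins, lay at 9.93, 9.98 and 9.77 in Pfn2-/- liver and at 9.81, 9.59 and 9.40 in wild-type liver, a difference of 0.29 (SE 0.14). The interval of Pdia3 reached from -0.02 to 0.61, so it too included 0.

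Hsp90b1, the Hsp90 of the ER, had values of 11.45, 11.71 and 11.10 in Pfn2-/- liver and of 11.54, 11.38 and 11.16 in wild-type liver. The genotypes overlapped throughout, and the difference was 0.06 (95% interval -0.33 to 0.45). The lectin chaperone genes Calr and Canx differed by 0.13 (SE 0.15) and 0.11 (SE 0.12). Canx was among the steadiest members, with a residual SD of 0.07, and its interval of -0.15 to 0.37 bounds any difference more closely than for most members. Pdia6 and the co-chaperone gene Dnajb11 both differed by 0.15, with SE of 0.14 and 0.16. When single arrays were left out, Calr lay at 0.03 to 0.27, Pdia6 at 0.08 to 0.25 and Dnajb11 at 0.04 to 0.27. Hyou1, a large Hsp70-related exchange factor for BiP, differed by 0.17 (SE 0.22), with values of 0.02 to 0.40 when single arrays were left out, the lowest without Pfn2-/- replicate 2 and the highest without Pfn2-/- replicate 3. Dnajc3, a co-chaperone that also inhibits PERK, differed by 0.05 (SE 0.15).

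Dnajb9, a J-domain co-chaperone of BiP that also restrains IRE1, was the only chaperone with a mean below wild type, and by 0.01 only. Its values were 8.81, 8.62 and 10.05 in Pfn2-/- liver, against 8.95, 9.21 and 9.36 in wild-type liver. Pfn2-/- replicates 1 and 2 were the 2 lowest arrays and Pfn2-/- replicate 3 was the highest. With all arrays the difference was -0.01 (SE 0.32, 95% interval -0.72 to 0.70), and without Pfn2-/- replicate 3 it was -0.46 (SE 0.16). Its residual SD of 0.57 was at percentile 98.9 of all genes.

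**Figure D2:**
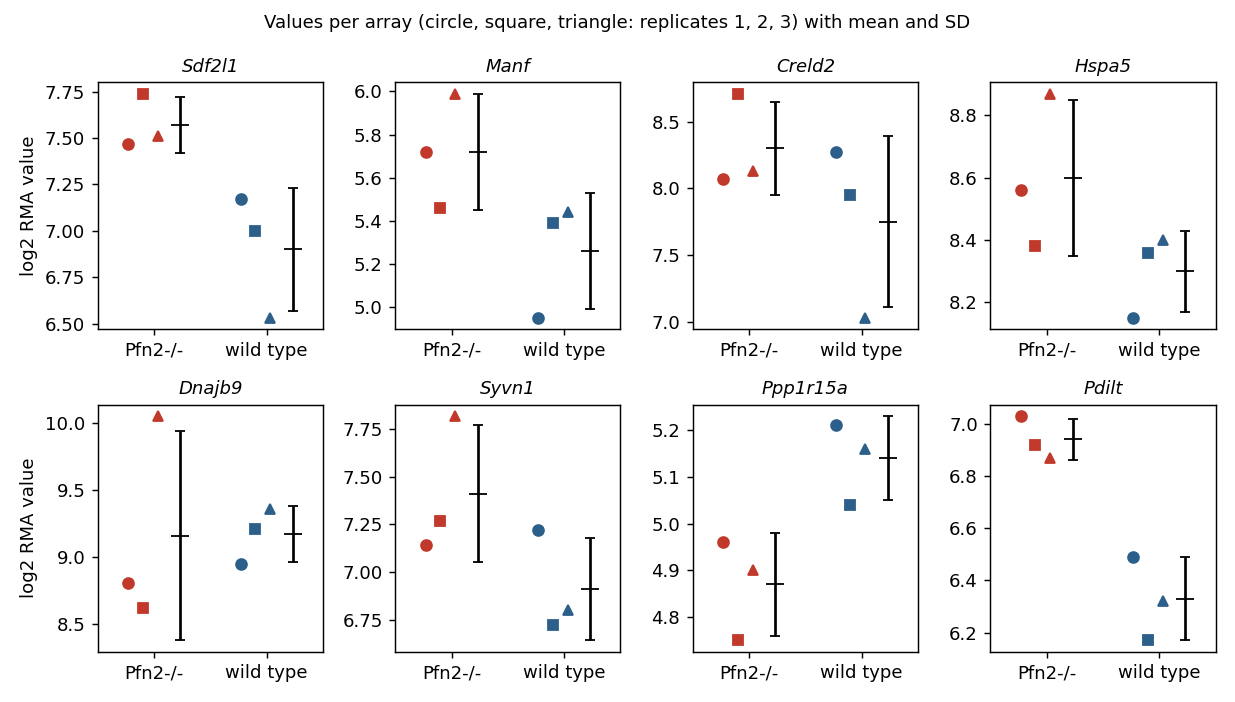
Log2 RMA values of 8 members on each array, with Pfn2-/- (red) left of wild type (blue) and a symbol for each replicate number. Horizontal marks and bars are the mean and SD of 3 arrays. Sdf2l1, Manf and Pdilt lie higher and Ppp1r15a lies lower in every Pfn2-/- array than in any wild-type array, while Creld2, Hspa5, Dnajb9 and Syvn1 overlap.

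Serp1 encodes a small protein at the ER translocon that is linked to stress tolerance, and it lies near the targeted locus on chromosome 3. In the RefSeq annotation there are 11 genes between Pfn2 and Serp1, of which 1 is protein-coding, and 13 between Pfn2 and Selenot, of which 3 are protein-coding. Serp1 had values of 9.56, 9.45 and 9.82 in Pfn2-/- liver and of 9.62, 9.29 and 9.65 in wild-type liver (difference 0.09, SE 0.15). Selenot, an ER selenoprotein of the thioredoxin-like type, had 9.17, 9.04 and 9.25 in Pfn2-/- liver and 9.11, 9.07 and 9.22 in wild-type liver (difference 0.02, SE 0.12). The genotypes overlapped in both genes, and the 95% intervals were -0.25 to 0.43 for Serp1 and -0.25 to 0.29 for Selenot.

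The promoters of many chaperones hold an element that is tied to how the members are grouped, since the chaperones are set apart as targets of ATF6 and XBP1. Its share in each group therefore describes the list and is no separate finding. The ER stress response element (ERSE) is the letters CCAAT and CCACG with any 9 bases between them, bound by the factor NF-Y at the first part and by ATF6 or XBP1 at the second. Its part CCACG is shared by ERSE-II and, on the other strand, by the UPRE core, which were searched as well. The element was searched on both strands in RefSeq windows of 300 bases that run from 250 before to 50 after the start of a gene (GRCm38.p6). Windows were found for 30 of the 34 members. An exact ERSE lay in 9 of these 30, namely in 7 of 13 chaperone windows (Hspa5, Hsp90b1, Calr, Canx, Pdia6, Dnajc3 and Creld2) and in 2 of 7 degradation gene windows (Syvn1 and Derl3), against 0.137% of 27025 genes. Of the 37 genes with such a match in the genome-wide table, 24.3% were members. The ATF4 and CHOP genes had 0 of 5. The following stretches show the element in the classical case of Hspa5, in Syvn1, which had an unadjusted limma p under 0.05, and in Creld2 and Derl3, the members with the element that varied most between arrays of a genotype. Capitals mark the fixed letters of the element, read on the strand of the gene, and in Creld2 and Derl3 the element runs in the opposite direction.
Hspa5 (chr2:34772005-34772063, plus strand): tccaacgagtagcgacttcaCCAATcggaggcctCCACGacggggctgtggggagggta
Syvn1 (chr19:6046512-6046570, plus strand): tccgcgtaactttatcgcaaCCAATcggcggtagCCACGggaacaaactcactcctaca
Creld2 (chr15:88819500-88819558, plus strand): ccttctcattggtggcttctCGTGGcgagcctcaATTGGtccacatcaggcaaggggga
Derl3 (chr10:75893222-75893280, plus strand): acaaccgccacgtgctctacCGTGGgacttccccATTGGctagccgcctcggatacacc

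All 9 members with an exact ERSE had means above wild type with all arrays, with a median difference of 0.15. Without wild-type replicate 3, Hsp90b1 (-0.04), Dnajc3 (-0.08) and Derl3 (-0.02) lay below, and without Pfn2-/- replicate 2 Hsp90b1 (-0.08) and Dnajc3 (-0.01) did. The 20 measured members whose windows held no exact ERSE had 12 means above and 8 below wild type (median 0.07). At an unadjusted limma p under 0.05, 1 of the 9 and 2 of the 20 were higher. By the same rule 0 were lower in either set, against 2.67% higher and 2.62% lower of all genes. As 7 of the 9 are chaperones, of which 13 of 14 lay above wild type, the comparison is not separate from the grouping. Outside the list, 20 further genes with the element were measured, of which 11 lay above and 8 below wild type and 1 did not differ (median 0.04). Among them the ER oxidase gene Ero1b differed by 0.37 (SE 0.16) and Alg12, a mannosyltransferase gene of N-glycan assembly, by 0.40 (SE 0.21), neither with an adjusted p under 0.05. This comparison was made after the values were seen and was not tested. A match describes the letters of a window and not binding.

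A shorter form of the element, ERSE-II, has ATTGG and CCACG with any 1 base between them, and the ATF4 element was searched as TTGCATCA. Herpud1 held both in its window, and the Chac1 window held the ATF4 element. Over all genes the windows held ERSE-II in 0.0444% and the ATF4 element in 1.03%, while the UPRE core TGACGTGG was in 0.714% of all windows and in 0 of the 30 member windows. ERSE-II was also found in the Dnajb11 window. The stretches of Herpud1 and Chac1 are shown because these genes belong to either side of the response, with the fixed letters in capitals.
Herpud1, ERSE-II (chr8:94386357-94386407, plus strand): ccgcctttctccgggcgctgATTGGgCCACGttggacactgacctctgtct
Herpud1, ATF4 element (chr8:94386297-94386344, plus strand): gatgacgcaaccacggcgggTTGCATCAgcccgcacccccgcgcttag
Chac1, ATF4 element (chr2:119351029-119351076, plus strand): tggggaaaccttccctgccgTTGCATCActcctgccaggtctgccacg

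Among the genes of ER-associated degradation the directions were mixed. Syvn1 encodes the ubiquitin ligase HRD1 at the centre of the pathway. It lay at 7.14, 7.27 and 7.82 in Pfn2-/- liver and at 7.22, 6.72 and 6.80 in wild-type liver. The groups overlapped through wild-type replicate 1, and Pfn2-/- replicate 3 was the highest array. The difference was 0.50 (SE 0.20, 95% interval 0.05 to 0.94, adjusted p = 0.915), and it was 0.29 (SE 0.18) without Pfn2-/- replicate 3. The unadjusted limma p was above 0.05 without that array and also without wild-type replicate 2 or 3. Sel1l, the partner that holds HRD1 in place, had a difference of 0.10 with a small spread (residual SD 0.06, 95% interval -0.15 to 0.36).

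Herpud1, a scaffold of the degradation complex and a target of both arms, had a mean below wild type. Its values were 10.37, 10.58 and 10.83 in Pfn2-/- liver, against 10.91, 11.10 and 10.45 in wild-type liver. The groups overlapped because wild-type replicate 3 was low. The difference was -0.23 (SE 0.19, 95% interval -0.64 to 0.19), and it was -0.41 (SE 0.17) without wild-type replicate 3 but -0.09 without wild-type replicate 2 and -0.12 without Pfn2-/- replicate 1. Edem1, which helps to pull misfolded glycoproteins out of the folding cycle, lay at 8.77, 8.76 and 8.85 in Pfn2-/- liver and at 8.89, 8.88 and 8.96 in wild-type liver. Its groups did not overlap, yet the difference was -0.12 (95% interval -0.37 to 0.14), and a second, dimmer row of the gene gave 4.11, 4.25 and 4.14 in Pfn2-/- liver against 4.17, 4.36 and 4.43 in wild-type liver.

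Derl3, a derlin gene of the dislocation channel that is strongly inducible by ER stress, varied most among the degradation genes. It had 5.82, 6.45 and 5.99 in Pfn2-/- liver and 6.39, 5.82 and 4.96 in wild-type liver. The difference of 0.36 (SE 0.31) became -0.02 without wild-type replicate 3 and was 0.18 to 0.70 without any other array. Derl1, Derl2 and Edem2 differed by 0.05, 0.13 and 0.10, each less than or close to its SE of 0.13, 0.14 and 0.12. For Derl2 the mean over its 2 rows gave -0.04.

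The sensors themselves overlapped between genotypes. Ern1 lay at 7.86, 7.48 and 7.87 in Pfn2-/- liver and at 7.64, 7.37 and 7.85 in wild-type liver (difference 0.12, SE 0.16). Eif2ak3 lay at 5.68, 5.68 and 6.29 in Pfn2-/- liver and at 5.74, 5.90 and 6.15 in wild-type liver (difference -0.05, SE 0.19). In either genotype both genes were highest in replicate 3. Atf6 had 8.94, 9.08 and 8.96 in Pfn2-/- liver, against 9.27, 9.32 and 8.98 in wild-type liver, where Pfn2-/- replicate 2 lay above wild-type replicate 3 (difference -0.20, SE 0.13, 95% interval -0.49 to 0.10). Total Xbp1 RNA, of 9.33, 9.16 and 8.96 in Pfn2-/- liver and of 8.96, 9.23 and 9.07 in wild-type liver, differed by 0.06 (SE 0.14, 95% interval -0.25 to 0.38).

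In the ATF4 and CHOP arm the means lay at or below wild type except for Chac1. Ppp1r15a encodes GADD34, the phosphatase subunit that reverses eIF2alpha phosphorylation. It lay at 4.96, 4.75 and 4.90 in Pfn2-/- liver and at 5.21, 5.04 and 5.16 in wild-type liver. Every Pfn2-/- array was below every wild-type array, and the difference was -0.27 (SE 0.12, 95% interval -0.54 to 0.01, adjusted p = 0.92). Atf4 itself had 7.38, 7.11 and 7.31 in Pfn2-/- liver and 7.21, 7.48 and 7.51 in wild-type liver, which overlap (difference -0.13, SE 0.14).

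Ddit3, the gene of the pro-apoptotic factor CHOP, had 5.04, 5.11 and 5.43 in Pfn2-/- liver and 5.35, 5.51 and 4.80 in wild-type liver, a difference of -0.03 (SE 0.19, 95% interval -0.46 to 0.40). The pseudokinase gene Trib3 and the glutathione-degrading enzyme gene Chac1 differed by -0.03 (SE 0.20) and 0.07 (SE 0.14). Trib3 was lowest in replicate 3 of either genotype, at 4.37 in Pfn2-/- and 4.58 in wild type. The rows of Ddit3, Trib3, Chac1 and Ppp1r15a were the dimmest of the members, though with means at percentiles 52.0 to 59.0 of all genes. RMA compresses differences of dim rows, and whether it did so for these rows was not tested. Among 27 other measured ATF4 target genes, 7 lay above and 19 below wild type and 1 did not differ (median -0.10). At an unadjusted limma p under 0.05, 1 was higher and 0 were lower, against 2.67% and 2.62% of all genes. That 1 was the amino acid transporter gene Slc7a5 (0.41, SE 0.16), while Slc7a1 and the stress sensor gene Sesn2 differed by -0.24 (SE 0.12) and -0.32 (SE 0.16).

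**Figure D3:**
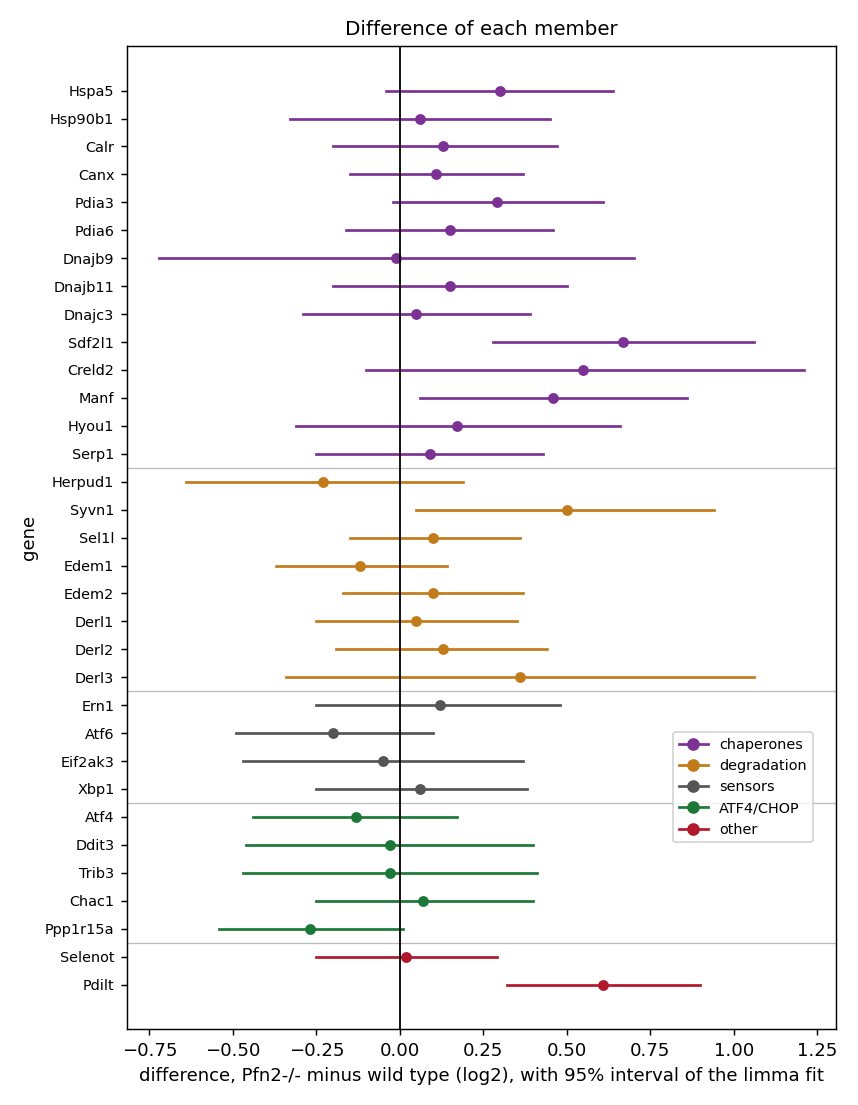
Difference of each of the 33 members, Pfn2-/- minus wild type, on the log2 scale (points) with the 95% interval of the limma fit over 6 arrays (lines), coloured by group. The intervals of Sdf2l1, Manf, Syvn1 and Pdilt lie above 0, and all others include 0.

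Pdilt, a testis-enriched relative of the disulfide isomerases that lacks their usual active-site motif, had the smallest p of the members. It lay at 7.03, 6.92 and 6.87 in Pfn2-/- liver and at 6.49, 6.17 and 6.32 in wild-type liver. The genotypes were well apart, and the spread within each was small (residual SD 0.13). The difference was 0.61 (SE 0.13, 95% interval 0.32 to 0.90), a 1.53-fold higher level, with an unadjusted limma p of 0.000838 and an adjusted p of 0.621. It was 0.53 to 0.69 when single arrays were left out. The nearest measured genes on either side, Umod and Acsm5, differed by 0.03 (SE 0.21) and 0.12 (SE 0.15). Of 8 measured germ cell markers 4 lay above and 4 below wild type (median 0.01), with the mean of the list at -0.04 to 0.05 in Pfn2-/- liver and at -0.05 to 0.05 in wild-type liver. No role of Pdilt in the hepatic unfolded protein response is assumed here, and its place among the members was fixed with its difference already known.

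The genotypes stood wholly apart in few members. Those that lay wholly above wild type were 3 members (Sdf2l1, Manf and Pdilt), or 9.09%, against 5.09% of all genes. Of these, Pdilt was placed among the members with its difference already known, so the share above is no independent evidence. Those wholly below were 2 (Edem1 and Ppp1r15a), or 6.06%, against 4.76% of all genes. The share below is near that of all genes. Half-widths of the 95% intervals of the members ran from 0.25 to 0.71 with a median of 0.34. Even Sdf2l1, Manf, Syvn1 and Pdilt, whose differences exceeded their half-widths, missed the adjusted threshold with 3 arrays per genotype.

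Within each genotype the members also varied between individual livers. Of the 14 chaperones and folding factors, 9 had their highest value in Pfn2-/- replicate 2, or 64.3%, against 17.8% of all genes. They were Hsp90b1, Calr, Canx, Pdia3, Pdia6, Dnajb11, Sdf2l1, Creld2 and Hyou1. The lowest value was in wild-type replicate 3 for 7 of the 14, or 50%, against 16% of all genes. A further 4 chaperones (Hspa5, Dnajb9, Manf and Serp1) were instead highest in Pfn2-/- replicate 3, where Hsp90b1, Calr and Hyou1 were lowest. Genes of one array share that liver and its RNA, so these counts describe single animals and carry no test.

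The mean of the chaperones, each centred on its own average, was 0.07, 0.17 and 0.10 in Pfn2-/- replicates 1, 2 and 3 and 0.01, -0.10 and -0.25 in wild-type replicates 1, 2 and 3. All Pfn2-/- arrays lay above all wild-type arrays, with Pfn2-/- replicate 1 and wild-type replicate 1 nearest to each other. For the degradation genes the means were -0.03, 0.03 and 0.16 in Pfn2-/- liver and 0.03, -0.04 and -0.16 in wild-type liver, which overlap. The ATF4 and CHOP arm gave 0.02, -0.02 and -0.12 in Pfn2-/- liver and 0.05, 0.11 and -0.05 in wild-type liver, which overlap too. The median difference of the chaperones was 0.08 when wild-type replicate 3 was left out, and was 0.23 or 0.24 when wild-type replicate 1 or Pfn2-/- replicate 3 was.

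**Figure D4:**
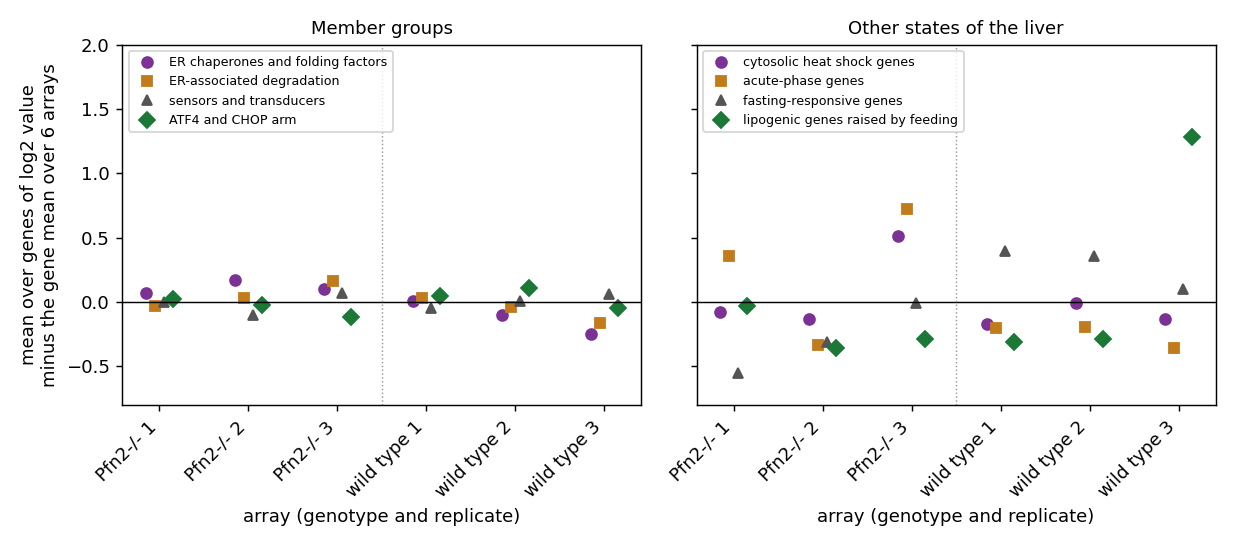
Mean over the genes of a list of the log2 value minus the mean of each gene over the 6 arrays, for 4 groups of members (left panel) and 4 lists of other liver states (right panel), with Pfn2-/- arrays left of wild-type arrays. Chaperones run from 0.17 in Pfn2-/- replicate 2 to -0.25 in wild-type replicate 3, the array in which lipogenic genes reach 1.28.

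Wild-type replicate 3 and Pfn2-/- replicate 3 also stood apart in other programmes. Wild-type replicate 3, lowest for many chaperones, had a mean of 1.28 over 11 lipogenic genes, against -0.36 to -0.03 in the Pfn2-/- arrays and -0.31 and -0.29 in the other wild-type arrays. Pfn2-/- replicate 3, highest for Dnajb9, Hspa5 and Syvn1, had the highest mean of 16 cytosolic heat shock genes, at 0.51 against -0.17 to -0.01 in the wild-type arrays and -0.08 and -0.13 in the other Pfn2-/- arrays. Of these heat shock genes 14 lay above and 2 below wild type (median 0.23), beside 13 above and 1 below (median 0.15) for the ER chaperones. Pfn2-/- replicate 3 also had the highest mean of 16 acute-phase genes, at 0.72, beside 0.36 and -0.33 in the other Pfn2-/- arrays, against -0.36 to -0.19 in wild-type liver, and 15 of these genes lay above and 1 below wild type (median 0.12). Pfn2-/- replicate 2, highest for many chaperones, had means of -0.36 for lipogenic, -0.13 for heat shock and -0.33 for acute-phase genes. It had the highest mean of 15 circadian clock genes, at 0.24. The other Pfn2-/- arrays were at 0.04 and -0.24 for these, and the wild-type arrays at -0.09 to 0.05. Of the clock genes 7 lay above and 8 below wild type, with differences from -0.69 to 1.13 (median -0.21). The clock list mean therefore joins genes of opposite directions and does not describe a shared change. Fasting-responsive genes were below wild type in 10 of 12 cases (median -0.27), with Lpin1 at -2.0 (SE 0.34) and Igfbp1 at -2.11 (SE 0.47). Their list means were -0.55, -0.31 and -0.01 in Pfn2-/- replicates 1, 2 and 3. In wild-type replicates 1, 2 and 3 they were 0.40, 0.36 and 0.10, so the genotypes did not overlap, as for the chaperone means. ER chaperones of liver are known to follow feeding. The lipogenic genes, which feeding raises, were below wild type too, in 10 of 11 cases (median -0.51), with Scd1, a fatty acid desaturase gene, at -0.35 (SE 0.13). Apart from wild-type replicate 3, however, the lipogenic list means of the genotypes overlapped. The part of feeding, inflammation, heat shock responses or the clock in the values of the members was not tested.

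Plasma cells and pancreatic acinar cells are rich in ER chaperones. Of 9 measured B and plasma cell markers 7 lay below wild type and 2 above (median -0.14). The list mean was -0.20 to -0.01 in Pfn2-/- liver and -0.04 to 0.29 in wild-type liver. Their differences ran from -0.83 (SE 0.24), for Jchain, the joining chain of secreted antibodies, to 0.17. Of 9 acinar markers 6 lay above and 3 below wild type (median 0.02), with a list mean of -0.03 to 0.13 in Pfn2-/- liver and of -0.10 to 0.08 in wild-type liver. The largest difference among them was that of the trypsinogen gene Prss2, at 0.34 (SE 0.15), with all Pfn2-/- arrays above all wild-type arrays. The row of Prss2 was dim, with a mean at percentile 9.7 of all genes. The acinar rows were not uniformly dim: Cela1, an elastase gene, lay at 4.82 to 5.72 in Pfn2-/- liver and at 4.87 to 5.38 in wild-type liver, above the array medians, and the acinar factor gene Ptf1a lay at 3.66 to 3.96 in Pfn2-/- liver and at 3.46 to 3.79 in wild-type liver, below them. Of 10 hepatocyte markers 3 lay above and 7 below wild type, with differences from -0.49 to 0.10 (median -0.03). Markers of cholangiocytes, the bile duct cells, lay above wild type in 5 of 6 cases (median 0.11), with Sox9 at 0.58 (SE 0.20) and Cftr at 0.33 (SE 0.13). The row of Cftr was dim, with a mean at percentile 5.7 of all genes. The other markers, Muc1, Krt19, Krt7 and Epcam, differed by 0.17, 0.05, 0.02 and -0.10. Below wild type lay 9 of 10 Kupffer cell and macrophage markers (median -0.11), 7 of 7 T and NK cell markers (median -0.06), 8 of 10 stellate cell and fibroblast markers (median -0.11) and 7 of 9 endothelial markers (median -0.09), while 6 of 9 neutrophil markers lay above (median 0.12). Wild-type replicate 2 had the highest list means of Kupffer cell markers (0.46) and of T and NK cell markers (0.64). For Kupffer cell markers the other wild-type arrays were at -0.05 and -0.24, against -0.10 to 0.00 in Pfn2-/- liver. For T and NK cell markers they were at -0.08 and -0.28, against -0.26 to 0.11 in Pfn2-/- liver. The part of these cell types in the values of the members was not tested.

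Beyond the members, the lists of the wider secretory pathway were mixed in the sign of their differences. Of 32 other folding and N-glycosylation genes 16 lay above and 16 below wild type (median 0.02), with 3 higher and 1 lower at an unadjusted limma p under 0.05. Of all genes 2.67% were higher and 2.62% lower by that rule. The glucosidase gene Mogs, which trims new N-glycans, differed by 0.29 (SE 0.11), Ero1b by 0.37 and the BiP exchange factor gene Sil1 by -0.31 (SE 0.13). Among 19 further degradation genes 0 had such a p, and Ubxn4, Aup1 and Faf2 differed by 0.26 (SE 0.15), -0.13 (SE 0.13) and 0.11 (SE 0.11). Of 29 genes of translocation and early traffic 11 lay above and 18 below wild type, with 2 higher and 0 lower at that p, the translocon gene Sec61g (0.29, SE 0.12) and the signal peptidase gene Sec11a (0.27, SE 0.12), beside Sec11c at 0.32 (SE 0.16). Of 18 other sensors, kinases and stress factors 9 lay above and 9 below wild type. At that p 0 were higher and 2 lower, the C/EBP factor gene Cebpb (-0.45, SE 0.15) and the amino acid sensor kinase gene Eif2ak4 (-0.32, SE 0.14), while the protease gene Mbtps2, which activates ATF6, differed by -0.20 (SE 0.11). In this list 0 genes lay wholly above and 5 wholly below wild type, against 5.09% and 4.76% of all genes. Wholly above and wholly below lay 3 and 1 of the folding genes, 1 and 0 of the degradation genes, and 3 and 1 of the translocation and traffic genes. None of these genes passed the adjusted threshold.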

How the data were processed

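RNA of whole liver was measured on 6 arrays, 3 Pfn2-/- and 3 wild type. The submitters' processing notes name RMA and limma without a version or probe annotation. Deposited by the authors were log2 RMA values for 34390 rows, from 1.04 to 13.56, rounded to 2 decimals. RMA quantile normalizes arrays, which removes shifts shared by all genes, and compresses differences of dim rows. Of the rows, 23521 named exactly 1 gene symbol, 1814 named several and 9055 are unnamed here. The row of highest mean per gene left 22180 genes. The genotypes were set against each other by lmFit and eBayes of limma 3.58.1 (R 4.3.3), two-sided, with genotype as the sole term and Benjamini-Hochberg adjustment over all genes, and the fit was tested on simulated data. The number of arrays limits the precision. Labels call the arrays biological replicates and name no litters. Members and lists were chosen with earlier results of these data known. All members are named, with at most 3 genes of smallest p from each other pathway or state list. Alb, Jchain, Ptf1a, Prss2, Cela1, Sox9, Cftr, Muc1, Krt19, Krt7, Epcam and Alg12 were named after their values were seen. Promoter windows came from RefSeq (GRCm38.p6), and protein sequences were not used here. Same-numbered arrays of the genotypes had the same age, but their deviations from group means correlated at only -0.082, 0.155 and 0.020, so the numbers were not taken as pairs. Alternatives were median centring, repeated quantile normalization, a filter on dim genes, the mean of a gene's rows, eBayes with trend or robust, array weights, a replicate block and each array left out.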

Additional observations from a re-analysis of the deposited data

How the results depend on the processing

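No member passed the adjusted threshold under any of the 14 alternatives, where the smallest adjusted p was 0.368. Over all genes 0 passed with all arrays, 2 with array weights, 7 with the replicate number as a block (replicate block) and 0 to 6 when single arrays were left out. Same-numbered arrays share only a number and an age, and under the block 5 members had an unadjusted limma p under 0.05, Creld2 in addition to the 4. That count was 4 or 5 under the other settings and 3 to 6 without single arrays (6 without wild-type replicate 1, 3 without wild-type replicate 2 or Pfn2-/- replicate 1), with Sdf2l1 and Pdilt in each. A lower member was among them in 4 settings, Ppp1r15a with median centring and with the filter, Herpud1 without wild-type replicate 3 and Dnajb9 without Pfn2-/- replicate 3, and array weights had Hspa5 in place of Syvn1. Without single arrays the median difference was 0.08 to 0.24 for chaperones, 0.07 to 0.14 for degradation genes, -0.07 to 0.06 for sensors and -0.15 to 0.04 for the ATF4 and CHOP arm. The sign held under every alternative run for 19 members and turned for 14. It turned for Dnajc3 with array weights (-0.04), for Derl2 with the mean of its rows (-0.04), and differences became 0.00 for Ddit3 with repeated quantile normalization and for Selenot with median centring. Ranges without single arrays that crossed 0 were -0.08 to 0.22 for Hsp90b1, -0.46 to 0.26 for Dnajb9, -0.08 to 0.18 for Dnajc3, -0.03 to 0.17 for Serp1, -0.04 to 0.12 for Derl1, -0.02 to 0.70 for Derl3, -0.01 to 0.25 for Ern1, -0.25 to 0.06 for Eif2ak3, -0.03 to 0.16 for Xbp1, -0.24 to 0.12 for Ddit3, -0.16 to 0.19 for Trib3, -0.02 to 0.20 for Chac1 and -0.03 to 0.08 for Selenot. Ranges of other members that moved by over 1.5 times were 0.17 to 0.41 for Hspa5, 0.07 to 0.16 for Canx, 0.19 to 0.40 for Pdia3, 0.04 to 0.26 for Derl2, 0.06 to 0.15 for Edem2, -0.30 to -0.13 for Atf6 and -0.23 to -0.06 for Atf4, beside those in the report. The cause of these shifts was not tested. With median centring or repeated quantile normalization, both tried after seeing the data for this count, 9 chaperones were again highest in Pfn2-/- replicate 2 and 7 lowest in wild-type replicate 3. The rows of Trib3, Chac1, Ddit3 and Ppp1r15a were the dimmest of the members, which can limit what is seen of them.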
